A study of Rattus norvegicus with 15 samples.

Results

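Cardiomyocytes from rats with doxorubicin-induced heart failure were compared directly with cardiomyocytes from rats with heart failure after myocardial infarction (MI), by their microRNA (miRNA) levels. The comparison used 6 of the 15 samples of the series, 3 in each group, chosen by their sample labels alone. The DOX group was adult Sprague Dawley rats given repeated injections of doxorubicin (DOX), an anthracycline cancer drug that damages heart muscle. The MI group was adult Sprague Dawley rats whose left coronary artery was ligated, taken 4 weeks later. Healthy age-matched Sprague Dawley rats gave 3 control samples, which are set beside both groups for reference and are not part of the test. All hearts were dissociated and the cardiomyocytes were plated for 1 h on laminin, so that only attached, viable cells gave RNA. The DOX dose, the number of injections, the age and sex of the animals and the size of the infarcts are not given in the sources used here. It is not stated that the 3 samples per group are different animals, so each p-value reflects the spread among these lanes, which may be partly technical. The remaining 6 samples, cardiomyocytes exposed to DOX or vehicle in culture, entered only the shared estimate of the spread.

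MiRNAs are short RNAs that lower the output of messenger RNAs by pairing with them, mainly through the seed, bases 2 to 8 from the 5′ end. MiRNAs with the same seed form a family with overlapping targets, and several miRNAs are often cut from a shared transcript, so that members of a genomic cluster are made together. Heart muscle cells are rich in miR-1, miR-133, miR-208 and miR-499, whereas miR-126 is known from endothelial cells, miR-199a and miR-21 are raised in activated fibroblasts and also in stressed cardiomyocytes, and miR-143 and miR-145 are known from smooth muscle.

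Levels were counted on the nCounter system, which ligates a tag to each miRNA and counts individual molecules by their fluorescent barcodes. The lanes held 54608 to 133965 miRNA counts in DOX and 40381 to 77375 in MI. A miRNA was tested if its count lay above the lane background, the mean plus 2 SD of 8 negative probes, in at least 3 of the 6 lanes. Of 420 rat miRNA probes 95 passed, and 60 of these lay above background in all 6 lanes. A further 18 did so in all MI lanes but not in all DOX lanes, 8 in all DOX lanes but not in all MI lanes, and 9 in all lanes of neither group. Background was 353, 463 and 691 normalized CPM (counts scaled to a common miRNA total) in the DOX samples, against 303, 288 and 367 CPM in the MI samples. Another 31 probes passed background in 1 or 2 of the 6 lanes, and 294 in none. Samples within a group differed by more than counting error. A chi-square was taken over the probes with a sufficient expected count in both lanes, 313 to 375 in DOX pairs and 214 to 235 in MI pairs. Divided by its degrees of freedom, the chi-square was 34.5 and 23.0 for DOX sample 1 against DOX samples 2 and 3, but 5.10 between DOX samples 2 and 3. It was 19.5 for MI sample 3 against either of the other MI samples, and 2.57 between MI samples 1 and 2. DOX sample 1 and MI sample 3 therefore stood apart within their groups, and results are also given without them.

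Mature sequences from RefSeq (rat build GRCr8) are shown for 7 miRNAs called lower in DOX than in MI, among them the 5 called in every analysis that tested them, and for miR-15b, which was not called but shares the seed of 3 of them. The seed is in capitals.
miR-199a-5p: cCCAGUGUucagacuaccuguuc
miR-199a-3p: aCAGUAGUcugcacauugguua
miR-126: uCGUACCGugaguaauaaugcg
miR-21: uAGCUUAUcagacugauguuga
miR-322: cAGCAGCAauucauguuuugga
miR-195: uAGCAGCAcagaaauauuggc
miR-16: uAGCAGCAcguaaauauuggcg
miR-15b: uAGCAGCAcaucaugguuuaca
The last 4 share the seed of the miR-15 family. Both arms of miR-199a come from a single hairpin, on the plus strand at chr13:77116255-77116277 (5p) and chr13:77116294-77116315 (3p). The other loci are chr3:29813219-29813240 on the plus strand for miR-126, chr10:71902653-71902674 on the minus strand for miR-21 and chrX:137726198-137726219 on the minus strand for miR-322. Of the 95 tested probes, 81 were matched to a RefSeq mature sequence.

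Of 95 miRNAs tested, 24 differed between the groups at an adjusted p under 0.05 (25.3%), 7 higher in DOX (7.37%) and 17 lower in DOX (17.9%), by edgeR's quasi-likelihood test with Benjamini-Hochberg adjustment. The DOX and MI samples did not overlap for 37 of the 95 tested miRNAs (38.9%), among them all 7 called higher and 14 of the 17 called lower. The 3 called with overlap were miR-450a, miR-181a and miR-146a. Of the 17 called lower, 11 lay above background in all 6 lanes, with folds of 1.62 to 3.79, and 6 lay above it in all MI lanes but not in all DOX lanes. Of the 7 called higher, 2 lay above background in all 6 lanes, and 5 did so in all DOX lanes but not in all MI lanes. The median log2 change over all 95 was -0.11. The count of calls rested on single samples: 40 were called without DOX sample 1, 13 without DOX sample 2, 11 without DOX sample 3, 9 without MI sample 1, 10 without MI sample 2 and 32 without MI sample 3. Leaving out DOX sample 1 and MI sample 3 together gave 42 calls, 22 higher and 20 lower, with 23 of the 24 kept. Across all 18 alternative analyses 5 miRNAs were called in every analysis that tested them, miR-199a-5p, miR-199a-3p, miR-126, miR-21 and miR-322, all lower in DOX.

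**Figure D1:**
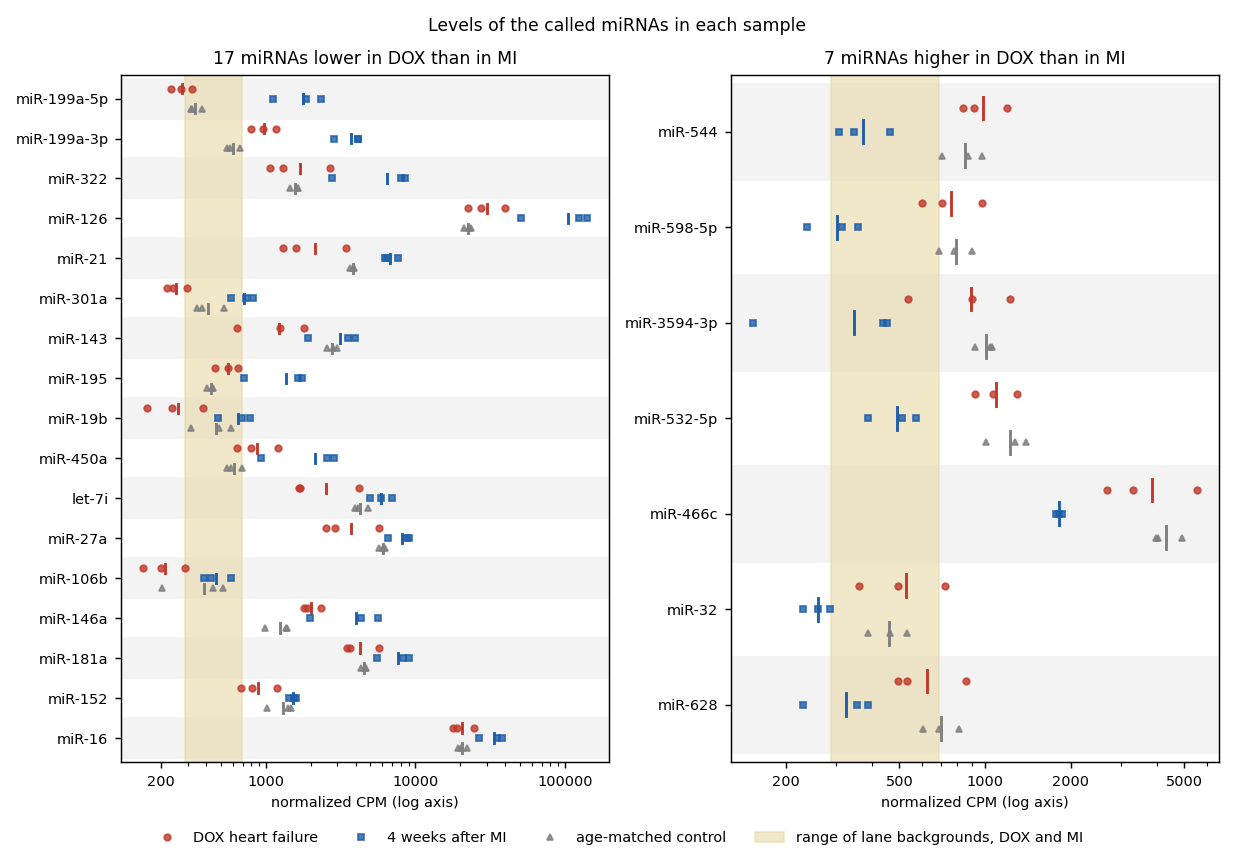
Normalized CPM (log axis) of the 17 miRNAs called lower and the 7 called higher in DOX than in MI, with a point per sample, a vertical bar at each group mean, and the age-matched controls below each pair. The shaded band is the range of the lane backgrounds of the 6 DOX and MI samples: miR-126, miR-21, miR-322 and miR-199a-3p lie above it in every DOX and MI sample, and among the miRNAs higher in DOX all MI samples except those of miR-466c lie in or below it.

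Both arms of miR-199a were lower in DOX. Its 5p arm is known to repress Hif1a, the hypoxia regulator, in rat cardiomyocytes. MiR-199a-5p measured 233, 272 and 320 normalized CPM in the DOX samples, against 1868, 2334 and 1124 CPM in the MI samples and 318, 319 and 372 CPM in the age-matched controls. Every DOX and control sample lay under its lane background, so miR-199a-5p entered the test through the MI lanes alone and its DOX level is known only as a bound. The MI mean was at least 3.53-fold above the mean background of the DOX lanes. The fitted log2 change of -2.72 ± 0.32 (SE, n = 3 each, edgeR adjusted p = 5.36e-06) is taken against that undetected level and was -3.81 after background subtraction. The 3p arm measured 964, 1161 and 791 CPM in DOX, against 4119, 4108 and 2853 CPM in MI and 578, 673 and 549 CPM in controls. It lay above background in all 6 lanes, and its log2 change was -1.92 ± 0.24 (SE, edgeR adjusted p = 6.85e-06), a 3.79-fold lower level in DOX. In both arms the MI samples stood well above the other 2 groups. MiR-214, which is made with miR-199a in mice, lay under background in all 6 lanes.

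MiR-126, which maintains vascular integrity through VEGF signalling, was the most abundant miRNA to differ. It measured 39603, 27504 and 22639 CPM in DOX, against 140930, 125000 and 50745 CPM in MI and 21138, 22698 and 23402 CPM in controls. The lowest MI sample, MI sample 3, still lay above the highest DOX sample, DOX sample 1. The log2 change was -1.82 ± 0.31 (SE, edgeR adjusted p = 0.000326). By rank of the group means miR-126 was the second most abundant miRNA in MI, against the ninth in DOX. Leaving out each sample in turn gave log2 changes of -2.15 to -1.55.

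MiR-21, a miRNA raised in cardiac fibroblasts under stress, measured 3456, 1309 and 1598 CPM in DOX, against 6447, 7602 and 6268 CPM in MI and 3644, 3834 and 3912 CPM in controls. Its log2 change was -1.67 ± 0.33 (SE, edgeR adjusted p = 0.0016). Every DOX sample lay below every control, and every MI sample lay above every control. Among the fibroblast-associated miRNAs 7 were on the panel and 5 were tested, of which 4 were called lower in DOX and none higher, against 17.9% called lower of all tested, with a median log2 change of -1.67 against -0.11 over all tested miRNAs. One of the 4, miR-199a-5p, entered the test through MI alone. The fourth was miR-152 at -0.76 ± 0.27, which stayed called in only 5 of the 18 alternative analyses. The fifth, miR-10a-5p, measured 0.12 ± 0.30. Both miR-199a arms, counted apart among the 4, come from a single hairpin.

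These lists mark cells that could accompany cardiomyocytes in a preparation, and in bulk RNA fewer cells of a type cannot be told apart from less of a miRNA per cell. Per 1000 miRNA counts, 4 members of the fibroblast list (miR-199a-3p, miR-199a-5p, miR-214 and miR-21) summed to 2.86 to 4.44 in DOX, against 10.1 to 13.5 in MI and 4.30 to 4.76 in controls. Left out of this sum were miR-10a-5p (log2 change 0.12), miR-152 (-0.76) and miR-10b, which lay under background in all 6 lanes. The endothelial marker miR-126 gave 24.6 to 36.8 in DOX, against 49.4 to 136 in MI and 19.8 to 22.0 in controls. The smooth muscle pair summed to 51.1 to 92.3 in DOX, against 49.7 to 62.9 in MI. Of the 5 leukocyte markers summed, miR-146a and miR-150 were above background in all 6 lanes, miR-223 was in none, and miR-142-3p and miR-142-5p were each above it in 1 MI lane. MiR-146b, also on the panel, was left out. Their sum was 13.1 to 21.5 in DOX, against 5.68 to 17.3 in MI and 5.68 to 5.83 in controls. The erythroid, liver and islet markers lay under background in all 6 lanes, as did 2 of the 3 brain markers. The cardiomyocyte markers took 278 to 320 per 1000 counts in DOX, against 227 to 331 in MI and 349 to 355 in controls. All 5 were above background in every DOX and MI lane before the authors' correction of miR-208. The part that other cell types had in these differences was not tested.

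In the fit of all samples no muscle miRNA passed the test, with 5 of the 6 on the panel tested. MiR-1, the most abundant miRNA of both groups, measured 255640, 272980 and 217400 CPM in DOX, against 180740, 180390 and 273820 CPM in MI. MI sample 3 held the highest value of all 6, and the log2 change was 0.23 ± 0.20 (SE, edgeR adjusted p = 0.431). Without MI sample 3 it was called higher in DOX (0.46, edgeR adjusted p = 0.0361), as it was without both DOX sample 1 and MI sample 3 (0.71, edgeR adjusted p = 0.0223), whereas scaling to the positive controls gave -0.46. The adjusted p over all alternatives ranged from 0.0223 to 0.986. MiR-133a measured 34283, 27109 and 20756 CPM in DOX, against 25250, 26887 and 37021 CPM in MI, with a log2 change of -0.12 ± 0.32. Its 3 controls, at 48348 to 49448 CPM, lay above every sample of both injured groups. MiR-133b gave -0.14 ± 0.32 and was likewise highest in controls. MiR-499, encoded within a myosin gene, measured 51689, 14462 and 13691 CPM in DOX, against 28243, 29739 and 26669 CPM in MI. DOX sample 1 lay at the control level of 48433 to 48955 CPM and the other DOX samples below all MI samples, so the spread within DOX exceeded the difference between groups (-0.08 ± 0.56). MiR-208, encoded within the alpha-myosin gene, measured 1294, 1951 and 2977 CPM in DOX, against 1151, 1283 and 1189 CPM in MI. Its groups did not overlap, but it missed the threshold (0.76 ± 0.29, edgeR adjusted p = 0.0514), and scaled to the positive controls its sign turned, to -0.15. MiR-208 is also among the 3 probes that the authors corrected for positive-control signal, and after the correction it stands at the floor of 1 count in all 15 lanes, so its uncorrected values do not measure miR-208 alone.

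**Figure D2:**
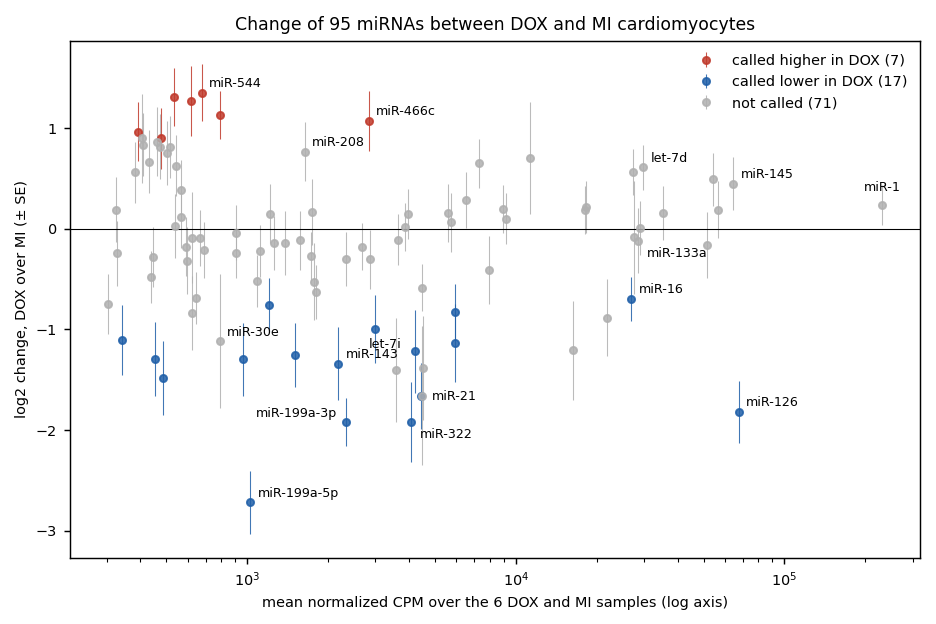
Log2 change of DOX over MI (± SE) against the mean normalized CPM over the 6 samples (log axis) for the 95 tested miRNAs. Calls lower in DOX span the whole range of levels up to miR-126, 6 of the 7 calls higher in DOX have a mean under 1000 CPM, and the muscle miRNAs miR-1 and miR-133a lie near 0.

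The miR-15 family, known in mice to hold back cardiomyocyte proliferation, had 4 of its 5 panel members tested, of which 3 were called lower in DOX and none higher, against 17.9% called lower of all tested. MiR-322 measured 2684, 1309 and 1060 CPM in DOX, against 8570, 7957 and 2766 CPM in MI and 1648, 1446 and 1611 CPM in controls. DOX sample 1 and MI sample 3 nearly met, and the log2 change was -1.92 ± 0.40 (SE, edgeR adjusted p = 0.00221). MiR-195 measured 563, 457 and 656 CPM in DOX, against 1637, 1733 and 713 CPM in MI. Its DOX level was at background, above it in 1 of 3 lanes, and its log2 change was -1.30 ± 0.36 (edgeR adjusted p = 0.0134). MiR-16 measured 24752, 19044 and 17863 CPM in DOX, against 35176, 37997 and 26777 CPM in MI, and was lower by a modest margin (-0.70 ± 0.22, edgeR adjusted p = 0.0284). For miR-16 the controls, at 19136 to 21975 CPM, lay within the DOX range. MiR-15b, which missed the threshold, gave -0.63 ± 0.27. MiR-322 and miR-450a belong to a chromosome X cluster, where 2 of the 6 panel members were tested and both were called lower, against 17.9% of all tested. MiR-450a gave -1.25 ± 0.32 with overlapping groups, lay above background in 2 of 3 DOX lanes, and stayed called in 2 of the 6 analyses that left out a sample, those without DOX sample 1 (-1.57) and without MI sample 3 (-1.61).

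The let-7 family, which promotes differentiation and is abundant in adult heart, had all 8 members tested and only let-7i called, lower in DOX. Let-7i measured 4227, 1692 and 1665 CPM in DOX, against 5858, 6947 and 4949 CPM in MI (-1.22 ± 0.41, edgeR adjusted p = 0.0364). In contrast, let-7d measured 31848, 41830 and 34279 CPM in DOX, against 18598, 22315 and 29781 CPM in MI, a log2 change of 0.61 ± 0.22 that missed the threshold (edgeR adjusted p = 0.0514). Let-7a, with 0.56 ± 0.23, also had no overlap between groups, and 6 of the 8 members had a positive log2 change. Scaling to the positive controls turned all 6 negative, from -0.13 for let-7d and -0.16 for let-7a to -0.77 for let-7c. The 3 sequences share the seed and differ outside it, let-7i from let-7a at 4 of 22 bases and let-7d at 2.
let-7i: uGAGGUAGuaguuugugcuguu
let-7a: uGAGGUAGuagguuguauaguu
let-7d: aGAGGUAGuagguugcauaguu
The difference between let-7i and the other members was not tested.

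In the miR-30 family, abundant in heart muscle, 5 of 5 members were tested and none was called. MiR-30a measured 3343, 1013 and 1497 CPM in DOX, against 7112, 5323 and 3177 CPM in MI (-1.40 ± 0.52, edgeR adjusted p = 0.0514), with DOX sample 1 just above MI sample 3. MiR-30c went the other way, at 9627, 9436 and 7704 CPM in DOX, against 4988, 6073 and 5986 CPM in MI (0.65 ± 0.24, edgeR adjusted p = 0.0514), with no overlap. That direction depended on the scale, since with scaling to the positive controls miR-30c gave -0.04 and miR-30a -1.99. In the miR-29 family, repressors of collagen genes, all 3 members had a negative log2 change and none was called. MiR-29b measured 4123, 1037 and 1262 CPM in DOX, against 9056, 7793 and 3609 CPM in MI (-1.66 ± 0.69, edgeR adjusted p = 0.0696). MiR-29a, with 80129, 30641 and 35708 CPM in DOX against 53185, 55589 and 54765 CPM in MI, gave -0.16 ± 0.33. In the miR-29 family and miR-30a, DOX sample 1 was the highest DOX sample, more than 2 times either of the others. Without DOX sample 1, miR-29b, miR-29c and miR-30a passed the threshold.

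The other lists gave few calls, to be read against the 17.9% called lower and 7.37% called higher of all tested. In the miR-130 and miR-301 family 2 of 4 members were tested, and miR-301a was called lower (edgeR adjusted p = 0.00838). Every DOX sample of miR-301a lay under background, so it entered through MI alone, with an MI mean at least 1.43-fold above the mean DOX background. Its fitted log2 change was -1.48 ± 0.37, and -2.58 after background subtraction. MiR-130a measured 4042, 2013 and 1413 CPM in DOX, against 7061, 6578 and 5986 CPM in MI, and its -1.38 ± 0.52 missed the threshold (edgeR adjusted p = 0.0514). In the miR-181 family 2 of 3 panel members were tested and miR-181a was called lower (-0.83 ± 0.28). Of 6 tested miRNAs in the miR-17-92 group, 2 were called lower, miR-19b (-1.29 ± 0.37) and miR-106b (-1.10 ± 0.35). MiR-106b was above background in no DOX lane and miR-19b in 1, and both in all MI lanes. After background subtraction miR-19b gave -2.27 and miR-106b -2.05, and neither was called. The leukocyte list gave 1 call of 2 tested, miR-146a, an inhibitor of inflammatory signalling, at 2338, 1877 and 1800 CPM in DOX, against 4323, 5664 and 1988 CPM in MI and 992 to 1381 CPM in controls. MiR-150, a lymphocyte miRNA, gave 0.70 ± 0.55. The hypoxia miRNA miR-210 measured 450, 333 and 555 CPM in DOX, against 870, 723 and 800 CPM in MI, without overlap, and missed the threshold (-0.84 ± 0.37, edgeR adjusted p = 0.0745). In the miR-99/100 and miR-125 list and in the miR-26 list none was called, out of 5 and 2 tested. In the miR-23/24/27 list 1 of 5 tested was called, miR-27a, lower in DOX, with 5674, 2507 and 2893 CPM in DOX, against 8851, 9022 and 6548 CPM in MI. MiR-194, the tested p53-responsive miRNA, gave 0.19 ± 0.32.

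Members of the same genomic cluster can be compared within a lane, since the ratio of their counts does not depend on how lanes are scaled. There were 30 such pairs at most 10000 bases apart among the tested miRNAs, and the ratio did not overlap between groups for 14 of them (46.7%). Some members, among them miR-29b, miR-30c, miR-19b, miR-17-5p, miR-24, let-7a and let-7f, have 2 loci in the reference. Their counts cannot be assigned to 1 cluster, so ratios with them may mix products of 2 transcripts. In each pair the miRNA with the lower log2 change was made the numerator. The negative sign of the log2 differences follows from that order and is no result. With 3 samples against 3, the smallest two-sided exact permutation p is 0.1, and adjusted over the 30 pairs every such pair has p = 0.214, so none passed. The ratio of miR-143 to miR-145, on the minus strand of chromosome 18, was 0.0340, 0.00685 and 0.0163 in DOX, against 0.0683, 0.0629 and 0.0392 in MI, a log2 difference of -1.82. MiR-143 alone was called lower (-1.34 ± 0.36) whereas miR-145 gave 0.45 ± 0.26. With scaling to the positive controls both were negative, miR-143 at -1.99 and miR-145 at -0.38. The ratio of miR-27a to miR-23a, on the minus strand of chromosome 19, was 0.187, 0.0502 and 0.0931 in DOX, against 0.265, 0.271 and 0.198 in MI (log2 difference -1.34). On the paralogous chromosome 17 cluster, miR-27b to miR-23b was 4.13, 1.34 and 1.45 in DOX, against 5.14, 4.72 and 4.60 in MI (log2 difference -1.27). In both clusters the miR-27 member was lower relative to the miR-23 member in every DOX sample than in any MI sample. The 2 miR-27 sequences are nearly identical, as are the 2 miR-23 sequences. Whether the probes tell them apart was not tested, so the 2 clusters may not be separate readings. The sequences of these cluster partners are as follows, with seeds in capitals.
miR-27a: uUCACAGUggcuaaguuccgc
miR-23a: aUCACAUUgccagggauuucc
miR-143: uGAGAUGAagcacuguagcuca
miR-145: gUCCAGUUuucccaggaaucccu
MiR-322 to miR-450a was 2.23, 1.66 and 1.66 in DOX, against 2.99, 3.08 and 2.98 in MI (log2 difference -0.72), with miR-450a above background in 2 of 3 DOX lanes. The ratio of miR-29b to miR-29a, 0.0514, 0.0339 and 0.0353 in DOX, against 0.170, 0.140 and 0.0659 in MI, also did not overlap (log2 difference -1.56). However, miR-29b has another locus beside miR-29c on chromosome 13, so this is not a ratio within 1 cluster alone. MiR-30e to miR-30c gave the largest log2 difference of the 30 pairs, -2.05, although miR-30e was above background in only 1 DOX lane and miR-30c has 2 loci. By contrast miR-16 to miR-15b was 22.3, 11.1 and 12.3 in DOX, against 14.9, 16.3 and 14.2 in MI, with overlapping groups (log2 difference -0.06).

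**Figure D3:**
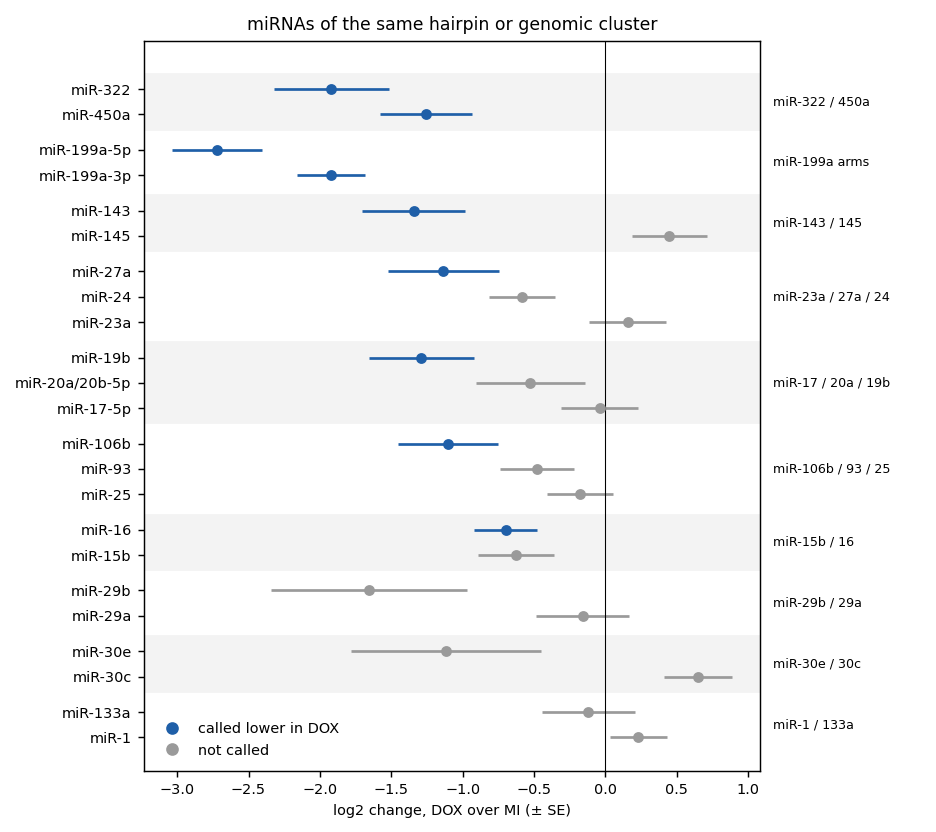
Log2 change of DOX over MI (± SE) of miRNAs grouped by hairpin or genomic cluster, in blue where called lower in DOX and in grey where not called. In 5 of the clusters shown, a called miRNA sits beside a partner that was not called, such as miR-143 at -1.34 and miR-145 at 0.45.

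**Figure D4:**
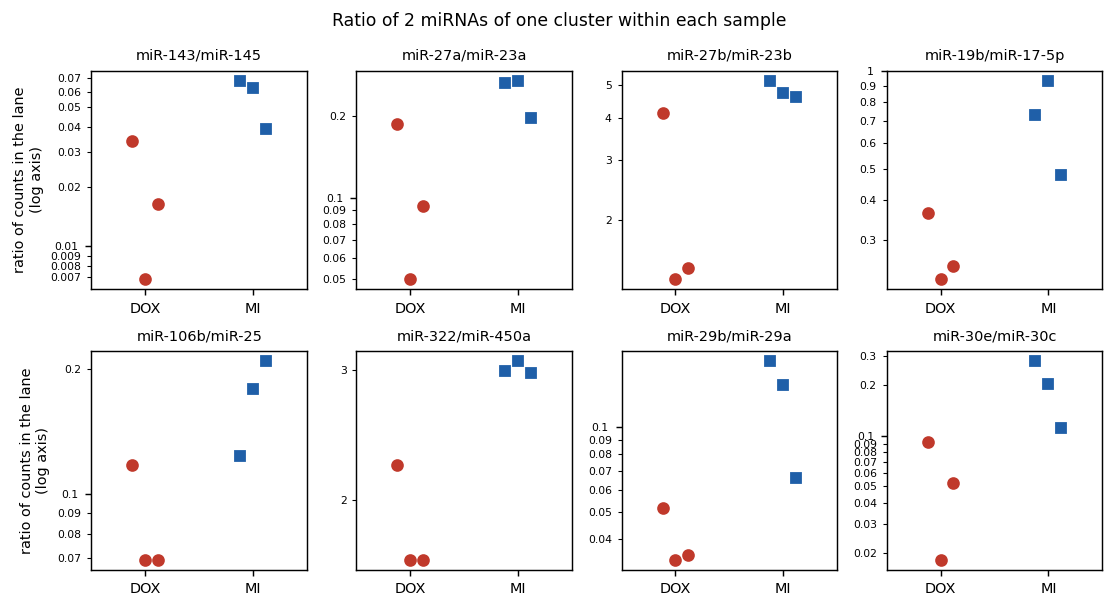
Ratio of the counts of 2 clustered miRNAs within each sample (log axes), DOX on the left and MI on the right of each panel, with a point per sample. The 8 pairs shown were picked from the 14 whose groups did not overlap. MiR-29b, miR-30c, miR-19b and miR-17-5p have 2 loci each, so their ratios may mix clusters. Each has the miRNA with the lower log2 change as numerator, so that DOX lies below MI is set by this choice. In all 8 the first DOX sample is the highest of its group.

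Of the 7 miRNAs higher in DOX, 6 had a mean under 1000 CPM over the 6 samples, miR-466c being the exception. MiR-544, of the imprinted Dlk1-Dio3 cluster, measured 836, 914 and 1194 CPM in DOX, against 307, 464 and 346 CPM in MI and 867, 706 and 974 CPM in controls (1.35 ± 0.28, SE, edgeR adjusted p = 0.00221). It was 1 of 2 tested members of 33 on the panel from that cluster, and the other, miR-543, gave -0.32 ± 0.33. MiR-532-5p measured 924, 1062 and 1295 CPM in DOX, against 512, 573 and 389 CPM in MI and 1388, 1009 and 1275 CPM in controls (1.13 ± 0.24, edgeR adjusted p = 0.00223). MiR-598-5p (1.31 ± 0.29), miR-3594-3p (1.27 ± 0.35), miR-466c (1.07 ± 0.30), miR-32 (0.97 ± 0.29) and miR-628 (0.90 ± 0.30) followed. For all 7 the DOX and MI samples did not overlap in normalized CPM, and on that scale the control means were closer to DOX than to MI. Of the 5 not above background in all MI lanes, miR-32 lay above background in no MI lane and in 1 control lane. The other 4 lay above it in 2 of 3 MI lanes. Their MI levels rest on few counts, such as 12, 34 and 16 for miR-544.

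These 7 calls depended on the scale. Positive-control probes, added in equal amounts to each lane, gave 130, 218 and 400 counts per 1000 miRNA counts in DOX, against 105, 125 and 134 in MI and 272 to 293 in controls. In raw counts they summed to 17357, 18059 and 21869 in DOX, against 4229, 9661 and 6389 in MI and 10053 to 18360 in controls. Every MI lane thus gave less positive-control signal than any DOX lane, and this lane difference cannot be told apart from the group. DOX sample 3, with the most positive-control counts per miRNA count, was the highest DOX sample for all 7. Per 1000 positive-control counts, miR-544 gave 5.99, 4.10 and 3.25 in DOX, against 2.84, 3.52 and 2.50 in MI, and 6 of the 7 overlapped between groups. On that scale the control mean was closer to MI than to DOX for all but miR-3594-3p. For miR-544 the means were 4.45 in DOX, 2.95 in MI and 2.80 in controls. Scaled by the positive controls, no miRNA was called higher in DOX and 18 were called lower. The 7 then gave log2 changes of 0.11 to 0.57, and the median over all tested miRNAs was -0.77 in place of -0.11. MiR-466c is 1 of 3 probes from which the authors subtracted a share of the brightest positive control. After that correction it stands at the floor of 1 count in all 15 lanes, so its uncorrected level is no more than the signal the authors assign to the positive control. On the authors' sum-normalized values, where that floor is only scaled by lane, its log2 change was -0.38. Per 1000 positive-control counts, miR-199a-3p, at 6.91, 5.21 and 2.15 in DOX against 38.1, 31.2 and 20.7 in MI, and miR-126, at 284, 123 and 61.5 in DOX against 1303, 948 and 368 in MI, kept their groups apart. The housekeeping mRNA probes differed in direction: Rpl19 was higher in DOX (5674 ± 725 CPM against 3111 ± 1040 CPM in MI, SD, n = 3 each, exact permutation p = 0.1, the smallest possible) and Actb was lower (1934 ± 587 CPM in DOX against 2874 ± 349 CPM in MI, exact permutation p = 0.2).

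**Figure D5:**
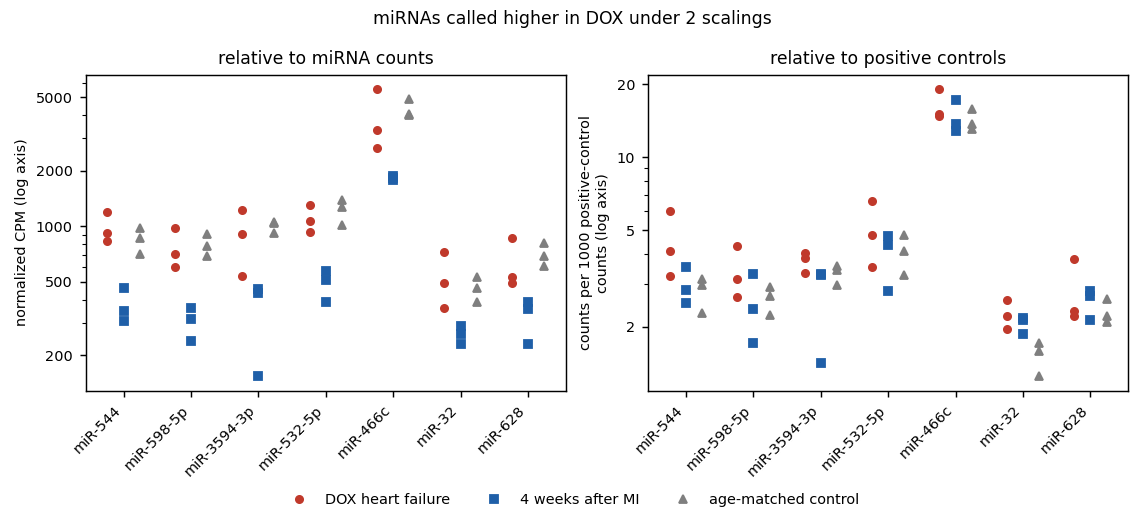
The 7 miRNAs called higher in DOX, as normalized CPM (left) and as counts per 1000 positive-control counts (right), both on log axes, with a point per sample and DOX, MI and age-matched controls from left to right. The groups are apart on the left and overlap on the right for all but miR-3594-3p.

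The age-matched controls are counted here in normalized CPM, only where the uncorrected level lay above background in all 3 groups. Of the 17 miRNAs lower in DOX, 11 lay above background in all 9 lanes, and for these the control mean lay below both groups for 5, between them for 6 and above both for none. The MI mean was thus the highest of the 3 groups for all 11. Of the 7 miRNAs higher in DOX, 2 lay above background in all 9 lanes, miR-532-5p and miR-466c, and their control means lay above both groups. This placing depended on the scale. Per 1000 positive-control counts the control mean of miR-532-5p, 4.05, lay between DOX at 4.97 and MI at 3.96. That of miR-466c, 14.2, lay below DOX at 16.4 and MI at 14.6. The uncorrected level of miR-466c is also no measure of that miRNA, given the authors' correction. In the authors' deposited tables of quantile-normalized group means, 23 of the 24 called miRNAs are listed for both groups and all 23 differ in the same direction as here. In the authors' deposited table the mean of miR-199a-5p was 33.3 in DOX, against 141 in MI, and that of miR-126 was 2784 in DOX, against 6772 in MI. The size of the difference varied, and for miR-146a the means were nearly equal, 275 in DOX against 285 in MI, where the fit here gave a 1.99-fold lower level. Those tables are made from the same lanes and are no independent support.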

How the data were processed

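Total RNA was measured on nCounter lanes, 1 per sample. The authors deposited whole barcode counts per probe, treated here under the unit of expected counts because the same columns hold lane attributes with decimals, and a sheet of expected counts corrected for 3 probes. They also deposited signal scaled by positive controls and by the miRNA sum, and tables of signal as quantile-normalized group means, per the file headers. The software that made them is not stated in the sources used here.

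Uncorrected counts of 420 rat miRNA probes entered edgeR 4.0.16 under R 4.3.3 (TMM scaling, robust quasi-likelihood fit) with all 15 lanes, 5 group means, contrast DOX minus MI. P-values were adjusted by Benjamini-Hochberg over the 95 tested miRNAs, and called under 0.05. CPM are TMM-scaled. SEs derive from the F statistic. No lane was dropped from the fit. Alternatives used DESeq2 1.42.0, limma 3.58.1 (pseudocount 1), other scalings, filters and single-sample omissions. The code was tested on simulated counts. Same-numbered DOX and MI samples correlated at 0.27, -0.04 and 0.16 in their deviations from the group mean. Differently numbered samples were not compared, so this cannot settle whether numbers pair samples. The main fit treated samples as unpaired. Intervals are not given for counts, whose counting error is smaller than the spread between samples.

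The comparison, the lists and the alternatives were chosen with earlier results of these data known. Named miRNAs are up to 10 called in each direction with the largest change and no overlap, every tested list member, and the 5 most abundant. The cluster pairs were examined after the values were seen.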

Additional observations from a re-analysis of the deposited data

How the results depend on the processing

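Of the 24 called miRNAs, 23 kept their direction under all 18 alternatives, miR-466c being the exception: on the authors' sum-normalized values, tested with limma, it gave -0.38, a value that reflects lane factors only, since the authors' correction set it to the floor of 1 in every lane. Against 24 calls (7 higher and 17 lower in DOX), DESeq2 gave 37 (20 higher), the fit of the 6 lanes alone 15 higher, the filter of 3 of 15 lanes 20 higher, and limma 13 higher. Housekeeping scaling gave 10 (3 higher, 7 lower), background subtraction 9 lower, and the filter of all 6 lanes 12 (5 lower), with 60 miRNAs tested. Scaling by the positive controls left 0 higher and 18 lower calls, with 40 miRNAs at an unadjusted p under 0.05, so the split was 7 to 17 by TMM and 0 to 18 by positive controls. It also turned the sign of 34 of the 71 uncalled miRNAs. Leaving out single samples gave 9 to 40 calls, 3 to 16 higher and 6 to 24 lower. Leaving out DOX sample 1 and MI sample 3 together gave 42 calls, 22 of them higher. With the replicate number as a block, 23 were called, 7 higher and 16 lower, and only miR-152 was lost. The cause of these shifts was not tested. The positive controls and the background per miRNA count were higher in the DOX lanes, which limits what can be said of miRNAs near background, among them 5 of the 7 miRNAs called higher and 6 of the 17 called lower, which did not exceed background in every lane of both groups.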
